A study of Mus musculus with 11 samples.

Results

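Genes of heme and iron handling were followed through RNA-seq of fetal lung mesenchymal cells that carried both, a single or no intact copy of Sp3, a transcription factor of the Sp/KLF family. The genes were the heme oxygenase Hmox1, the biliverdin reductases Blvra and Blvrb, the heme synthesis enzymes Alas1 and Fech, the transferrin receptor Tfrc, transferrin itself (Trf), the iron exporter ferroportin (Slc40a1), the ferritin heavy chain Fth1 and the copper ferroxidase ceruloplasmin (Cp). They were chosen as a group of like function, with earlier results of these libraries known, and are 10 of the 24062 genes listed in the files. Each of the 10 was listed in every library and passed the filter on low counts in every comparison.

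The cells came from mouse lungs at embryonic day 15. They were isolated by adhesion to culture plastic and passaged before RNA was taken. There were 4 WT (Sp3+/+) libraries (468-4, 685-2, 697-1 and 697-3), 4 Sp3+/- libraries (468-3, 685-5, 685-7 and 697-4) and 3 Sp3-/- libraries (685-1, 697-2 and 697-5), all without treatment in the labels. The Sp3 deletion is in every cell of the embryo, and adhesion and passage do not select a single cell type. Nothing in the labels says which libraries share a litter, a culture or a day, so the p-values measure the spread between these libraries, part of which may be technical.

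Heme is built in the mitochondrion, where the aminolevulinate synthases start the pathway and Fech inserts iron in its last step. Heme oxygenase opens the ring and sets the iron free, and biliverdin reductase turns the biliverdin it leaves into bilirubin. Iron enters most cells as transferrin bound to its receptor, is stored inside ferritin and leaves through ferroportin with the help of a ferroxidase. Tissue macrophages hold much Hmox1, ferritin and ferroportin because they recycle heme iron, and Hmox1 and ferritin genes are also known targets of the stress factor NRF2 and its rival BACH1.

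Several of these mRNAs carry an iron responsive element, a short hairpin to which the iron regulatory proteins bind when iron is scarce. In the leader of an mRNA the element lets them block translation, and in the tail it lets them protect the mRNA from decay. The hairpins are shown because they set Fth1 and Slc40a1 apart from Tfrc within the group. Each line gives 17 bases of the mouse mRNA, 5′ to 3′ with T for U, from the canonical transcript of GENCODE vM39, and the capitals mark the CAGTGN loop.
Fth1, leader, bases 93 to 109: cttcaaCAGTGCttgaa
Slc40a1, leader, bases 172 to 188: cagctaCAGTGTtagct
Tfrc, tail, first of 4, bases 3326 to 3342: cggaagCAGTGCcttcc
Tfrc, tail, second of 4, bases 3705 to 3721: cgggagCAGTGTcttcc
Tfrc, tail, the third of 4, bases 3770 to 3786: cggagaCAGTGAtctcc
Tfrc, tail, the last of 4, bases 3817 to 3833: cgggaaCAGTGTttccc
The search asked for a C, 5 bases that pair with the 5 bases after the loop (G with T allowed) and a loop whose last base is not G, within an untranslated part. Of 22263 coding canonical transcripts, 113 (0.508%) held a match. Among the other 7 genes no match was found, which says only that these letters were not in the one transcript searched for each gene.

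Sp1 and Sp3 are known to bind GC boxes, whose core reads GGGCGG. Promoter windows of 250 bases before a start site were available from RefSeq (GRCm38.p6) for 6 of the 10 genes, in 11 windows. Of these, 4 windows (36.4%), of 4 genes, held GGGCGG on either strand, and 32.7% of all 32851 windows did. The Blvrb window held 4 cores and the Fth1 window 3, Alas1 and Tfrc each had a window with 1, and Blvra and Cp had none. One of the Blvrb cores lay within the longer box GGGGCGGGG, found in 10.4% of all windows. The antioxidant response core TGACNNNGC was found once, before Blvra, and in 10.2% of all windows. The 2 windows with the most cores are printed 5′ to 3′ on the plus strand, the strand of both genes, with the cores in capitals.
Blvrb, chr7:27447728-27447977: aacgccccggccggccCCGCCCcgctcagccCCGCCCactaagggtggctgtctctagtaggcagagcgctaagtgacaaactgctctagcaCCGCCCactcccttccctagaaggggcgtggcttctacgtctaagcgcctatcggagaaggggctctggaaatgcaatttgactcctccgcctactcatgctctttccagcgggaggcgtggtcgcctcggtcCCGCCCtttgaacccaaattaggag
Fth1, chr19:9982396-9982645: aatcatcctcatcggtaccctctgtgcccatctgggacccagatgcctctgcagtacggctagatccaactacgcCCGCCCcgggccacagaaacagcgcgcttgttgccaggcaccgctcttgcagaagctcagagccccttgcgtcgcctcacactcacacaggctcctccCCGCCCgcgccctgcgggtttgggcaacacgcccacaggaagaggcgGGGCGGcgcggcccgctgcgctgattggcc
A match is a run of letters and not a measured site of binding.

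Sp3 itself checked the labels. It stood at 92.0, 60.7, 107 and 78.8 CPM (reads per gene scaled to the library total, with TMM factors) in WT, at 51.8, 63.2, 71.6 and 56.2 in Sp3+/- and at 18.9, 18.3 and 14.4 in Sp3-/- libraries. The Sp3-/- libraries lay below all others (log2 fold change −2.30 ± 0.21 SE against WT, adjusted p = 0.00611, edgeR), while WT and Sp3+/- overlapped. The libraries held 9849111 to 59297495 reads on genes, with the fewest in Sp3-/- 697-5. Library titles end in CTRL with a 2, a 3 or no number after it, and the sources used here explain neither the word nor the number. All 3 Sp3-/- libraries had no number, and so did WT 468-4 and Sp3+/- 697-4, whereas the 3 other WT and the 3 other Sp3+/- libraries had a number. Genotype and this suffix were therefore nearly confounded, and WT 468-4 and Sp3+/- 697-4 stood apart from their groups in many genes, with deviations from the group means that correlated at 0.71 across genes. Each result below is given with that in view.

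The labelled cell type was checked by its markers. Fn1, Col1a1 and Vim were abundant in every library, and the 12 lung mesenchyme markers summed to 26193 to 38267 CPM in WT, 26369 to 38156 in Sp3+/- and 11293 to 30357 in Sp3-/-. Macrophage markers were also present, led by the lysozyme gene Lyz2. The 21 of them summed to 753 to 1071 CPM in the 3 WT libraries with a suffix and 448 to 812 in the 3 such Sp3+/- libraries, but to 4185 in WT 468-4, 3714 in Sp3+/- 697-4 and 3899, 14071 and 12496 in Sp3-/- 685-1, 697-2 and 697-5. Red cell RNA was scarce. The adult globin genes Hba-a1, Hba-a2, Hbb-bs and Hbb-bt were at 0 reads in each of the 11 libraries, where 3 reads, the most that a count of 0 allows, are worth 0.0506 to 0.305 CPM. Reads shared between near-identical globin copies would not have been counted to either.

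Trf was the one gene of the 10 that rose in Sp3-/- cells against both other genotypes, and Hmox1, Alas1, Fech, Tfrc and Cp were called in none of the 3 comparisons with all libraries. With the title suffix as a covariate, Trf was still called against WT and none of the 10 against Sp3+/-. No Sp3-/- library has a suffix, so that fit separates suffix from genotype only through WT 468-4 and Sp3+/- 697-4. Against WT, 1 of the 10 genes, Trf, was called at an adjusted p below 0.05, in a comparison in which 18.5% of the 14025 genes tested were called. The median log2 fold change of the 10 was 0.96, beside 0.00 for all genes tested, and 8 of the 10 were positive. Against Sp3+/-, 5 of the 10 rose, namely Blvra, Blvrb, Trf, Slc40a1 and Fth1, where 25.5% of 14130 genes were called and 13.0% were called as higher. All 10 were positive there, with a median of 1.30 beside 0.00, and for 6 of the 10 (the 5 and Hmox1) every Sp3-/- library lay above every Sp3+/- library, as for 16.4% of all genes. Between Sp3+/- and WT, none of the 10 and 0.0% of 14130 genes were called by edgeR, DESeq2 or limma-voom, and 246 genes but none of the 10 had an unadjusted edgeR p below 0.05. The comparisons share libraries, so they do not count as separate evidence. Since the choice of the 10 genes was not blind to these libraries, no test was made of their counts against these shares.

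**Figure D1:**
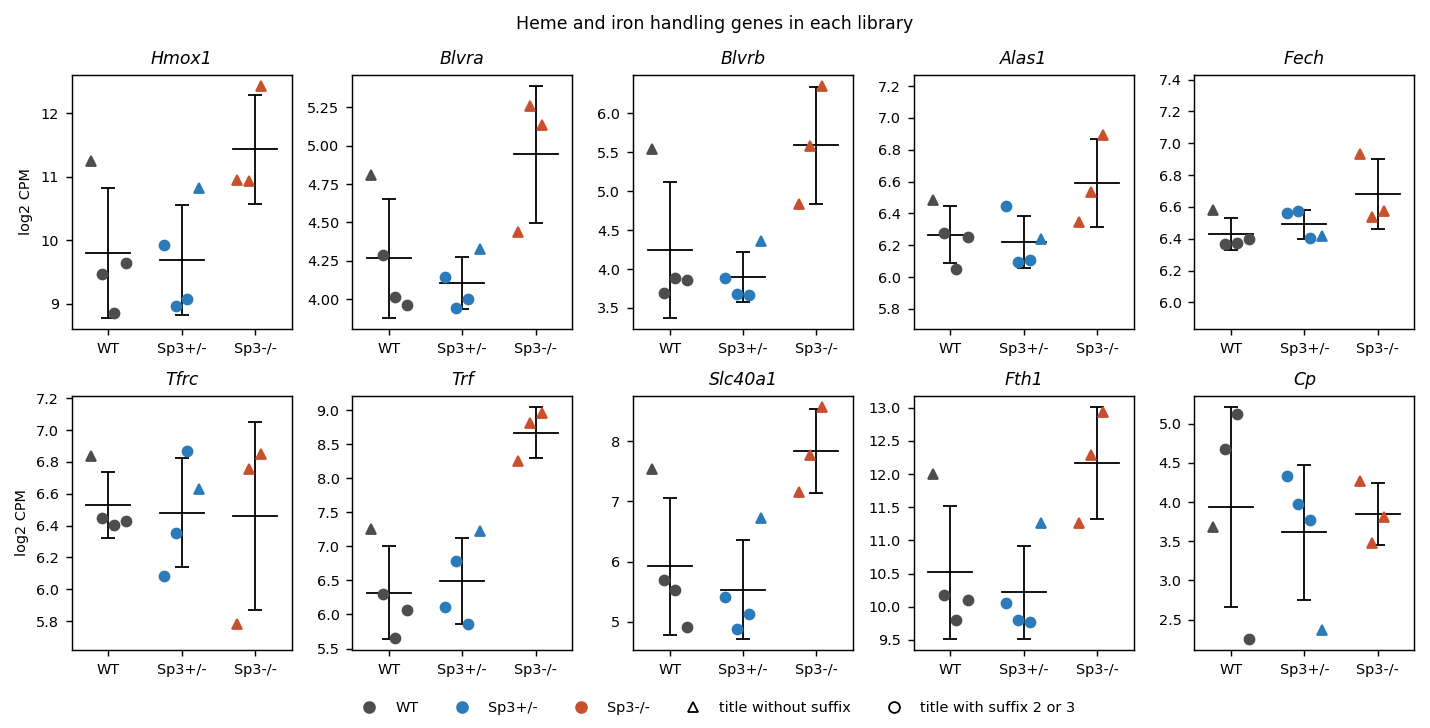
Level of each of the 10 genes in each library, in log2 CPM with a prior count of 2. Each point is a library (triangles have no suffix in the title), horizontal lines are group means and bars are ± SD. Trf is the only gene whose 3 Sp3-/- libraries all lie above all 4 WT libraries, and WT 468-4 is the highest WT library for every gene except Cp.

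Levels can be compared between genes only per transcript length, here CPM per kb of the canonical transcript, which takes no account of other isoforms. Fth1 was the most abundant (1945 CPM per kb on average in WT), followed by Hmox1 (698). A gap then separated these from Trf (33.9), Slc40a1 (22.7), Alas1 (22.7), Blvrb (19.2), Tfrc (19.0), Blvra (16.5) and Fech (13.3), and Cp was lowest (4.69). Fth1 and Hmox1 overlapped each other in WT but neither overlapped any of the other 8. The WT ranges from Trf to Blvra overlapped, so their order is not resolved, and Cp lay below all others, its highest library (8.40) just under the lowest Slc40a1 library (8.73). In Sp3-/- the order at the top was Fth1 (5495), Hmox1 (1997), Trf (162) and Slc40a1 (71.4), and the Trf libraries no longer overlapped those of Slc40a1.

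**Figure D2:**
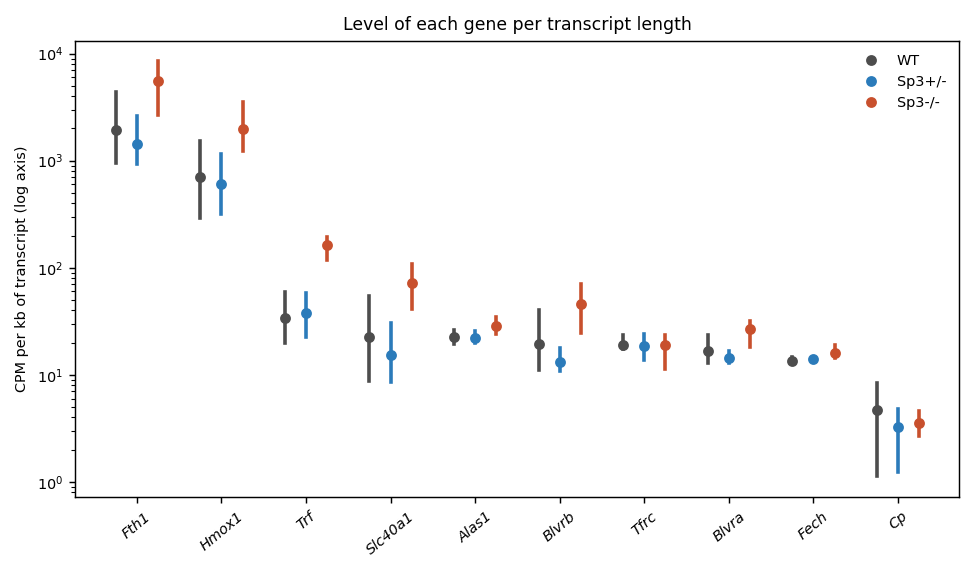
CPM per kb of transcript on a log axis for the 10 genes, ordered by their WT mean. Points are group means and lines run from the lowest to the highest library (4 WT, 4 Sp3+/- and 3 Sp3-/-). Fth1 and Hmox1 lie far above the rest, and the Trf range of Sp3-/- lies above those of WT and Sp3+/-.

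Trf encodes transferrin, the secreted carrier that brings ferric iron to cells (chr9:103208876-103230286, GRCm38.p6). It stood at 153, 78.6, 50.4 and 67.0 CPM in WT 468-4, 685-2, 697-1 and 697-3. In Sp3+/- 468-3, 685-5, 685-7 and 697-4 it was 68.8, 110.1, 57.9 and 150.0 CPM, and in Sp3-/- 685-1, 697-2 and 697-5 it was 304, 447 and 496 CPM. The lowest Sp3-/- library lay well above the highest library of either other genotype, which in both was the library without a suffix. Of all genes tested, 31.3% had no overlap between Sp3-/- and WT, 15.1% with Sp3-/- higher. Trf rose by a log2 fold change of 2.26 ± 0.38 SE, or 4.78-fold, against WT (adjusted p = 0.0144, edgeR) and by 2.11 ± 0.41 against Sp3+/- (adjusted p = 0.0075, edgeR). With the suffix as a covariate in a fit of all 11 libraries the change against WT was 1.56 ± 0.35 (adjusted p = 0.0304, edgeR) and that against Sp3+/- was 1.33 ± 0.35 (adjusted p = 0.065, edgeR). Leaving out a single library kept the call against WT in 6 of 7 fits, and without Sp3-/- 697-2 the adjusted p was 0.056 (edgeR). Where Sp3+/- 697-4 was given the suffix 2 of its file name, in an alternative added after the data were seen, no member was called and the smallest adjusted p was 0.217 (edgeR).

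The 3 genes whose log2 CPM followed Trf most closely over the 11 libraries, among 11204 genes with a mean log2 CPM above 2, were Dock8 (Pearson r = 0.99, Spearman rho = 0.96), Syngr1 (r = 0.99, rho = 0.97) and Irf5 (r = 0.99, rho = 0.93). Dock8 and Irf5 are known for their roles in leukocytes. The points share genotype and suffix, and the likeness is a description only. In bulk RNA, more cells of a type and more RNA per cell cannot be told apart.

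Hmox1 encodes the inducible heme oxygenase, which opens heme into biliverdin, iron and carbon monoxide (chr8:75093618-75100593). It was abundant, with 2430, 708, 462 and 802 CPM in WT, 978, 498, 538 and 1808 in Sp3+/- and 1978, 1953 and 5515 in Sp3-/-, in the order of libraries given for Trf. The Sp3-/- libraries lay above all Sp3+/- libraries, although only narrowly above 697-4, but a pair of them lay below WT 468-4. Its log2 fold change was 1.53 ± 0.64 SE against WT (adjusted p = 0.127, edgeR) and 1.73 ± 0.65 against Sp3+/- (adjusted p = 0.0747, edgeR), so neither comparison passed the threshold.

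Blvra and Blvrb encode the reductases that make bilirubin. Blvra (chr2:127070629-127097084) stood at 27.9, 19.5, 16.1 and 15.5 CPM in WT, 17.6, 15.3, 15.97 and 20.03 in Sp3+/- and 21.6, 38.3 and 35.0 in Sp3-/- libraries. Blvrb (chr7:27447978-27465981) stood at 46.7, 12.8, 14.7 and 14.5 CPM in WT, 14.7, 12.7, 12.6 and 20.5 in Sp3+/- and 28.6, 47.8 and 81.5 in Sp3-/-. For both, every Sp3-/- library exceeded every Sp3+/- library, and WT 468-4 exceeded Sp3-/- 685-1. Blvra rose by 0.87 ± 0.24 on the log2 scale against Sp3+/- (adjusted p = 0.025, edgeR) and Blvrb by 1.8 ± 0.49 (adjusted p = 0.0244, edgeR). Against WT the values were 0.68 ± 0.27 (adjusted p = 0.114, edgeR) and 1.24 ± 0.55 (adjusted p = 0.144, edgeR).

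Slc40a1 encodes ferroportin, the only known exporter of iron from animal cells (chr1:45908070-45926532). It stood at 187, 51.8, 45.8 and 30.2 CPM in WT, 42.3, 29.3, 35.1 and 105 in Sp3+/- and 143, 219.6 and 379 in Sp3-/-. WT 468-4 again lay among the Sp3-/- libraries, and Sp3+/- 697-4 lay between them and its own group. The rise against Sp3+/- was 2.23 ± 0.66 on the log2 scale, 4.68-fold (adjusted p = 0.0338, edgeR), and against WT the value was 1.66 ± 0.65 (adjusted p = 0.11, edgeR).

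Fth1, the ferroxidase subunit of the ferritin shell (chr19:9980600-9985111), was the most abundant of the 10. It stood at 4081, 1153, 893 and 1099 CPM in WT, 1068, 889, 871 and 2445 in Sp3+/- and 2458, 5005 and 7851 in Sp3-/- libraries. The lowest Sp3-/- library, 685-1, lay barely above Sp3+/- 697-4 and below WT 468-4. Fth1 rose by 1.96 ± 0.61 on the log2 scale against Sp3+/- (adjusted p = 0.04, edgeR), with 1.51 ± 0.63 against WT (adjusted p = 0.124, edgeR). The mouse genome holds processed copies of ferritin genes, so reads shared with a copy may be missing from these counts.

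The calls against Sp3+/- depended on single libraries. With each of the 11 libraries left out in turn, Trf kept its call every time, whereas Blvra, Blvrb, Slc40a1 and Fth1 kept theirs in 6 of 11 fits each. When Sp3+/- 468-3, 685-5 or 685-7 or Sp3-/- 697-2 or 697-5 was left out, Trf was the single member called, and without Sp3-/- 685-1 Alas1 joined the 5. With the suffix as a covariate none of the 10 was called against Sp3+/-, where 5.4% of genes were, and the estimates were 0.79 ± 0.50 for Hmox1, 0.52 ± 0.26 for Blvra, 0.94 ± 0.46 for Blvrb, 1.08 ± 0.43 for Slc40a1 and 0.89 ± 0.45 for Fth1 (log2 fold change ± SE).

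Alas1, the first and rate-limiting enzyme of heme synthesis outside red cells (chr9:106233455-106247954), varied little, with 89.5, 77.5, 66.2 and 76.2 CPM in WT, 87.2, 68.2, 68.8 and 75.3 in Sp3+/- and 81.3, 92.4 and 119 in Sp3-/-. Its log2 fold change against WT was 0.33 ± 0.16 (adjusted p = 0.175, edgeR). Fech, which inserts iron into the ring, stood at 82.4 to 95.6 CPM in WT, 84.8 to 95.3 in Sp3+/- and 122, 92.7 and 95.3 in Sp3-/- libraries (0.26 ± 0.11 against WT, adjusted p = 0.143, edgeR). In both, WT and Sp3-/- libraries overlapped, and neither was called in any of the 3 comparisons.

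Tfrc, the receptor that takes transferrin into the cell (chr16:32608896-32632794), stood at 114, 87.2, 84.8 and 86.0 CPM in WT, 67.6, 81.6, 117 and 98.8 in Sp3+/- and 54.9, 108 and 115 in Sp3-/- libraries. Sp3-/- 685-1 was the lowest of all 11 libraries, while the other two were among the highest. The difference from WT was −0.01 ± 0.26 on the log2 scale (adjusted p = 0.99, edgeR), and without 685-1 it was 0.26. Of the mRNAs with the printed hairpins, those with the element in the leader had positive estimates and Tfrc, with it in the tail, had one near 0. Cp, which oxidizes the iron that ferroportin exports (chr3:19956933-20009750), was low and scattered, with 12.8, 25.6, 34.9 and 4.71 CPM in WT, 20.1, 15.7, 13.7 and 5.11 in Sp3+/- and 19.2, 11.1 and 14.0 in Sp3-/- libraries. Its lowest library in WT was 697-3 and in Sp3+/- 697-4, and its difference from WT was −0.40 ± 0.61 (adjusted p = 0.657, edgeR).

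Between Sp3+/- and WT, estimates ran from −0.58 ± 0.61 for Slc40a1 to 0.14 ± 0.38 for Trf on the log2 scale. The libraries of the 2 genotypes overlapped for each of the 10 genes, as they did for all but 1.39% of genes. The SEs are wide for Hmox1 (0.60), Slc40a1 (0.61), Fth1 (0.57), Cp (0.55) and Blvrb (0.45). A change of the order of 1 on the log2 scale could therefore have been missed for these. The SEs are narrow for Fech (0.10) and Alas1 (0.14).

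**Figure D3:**
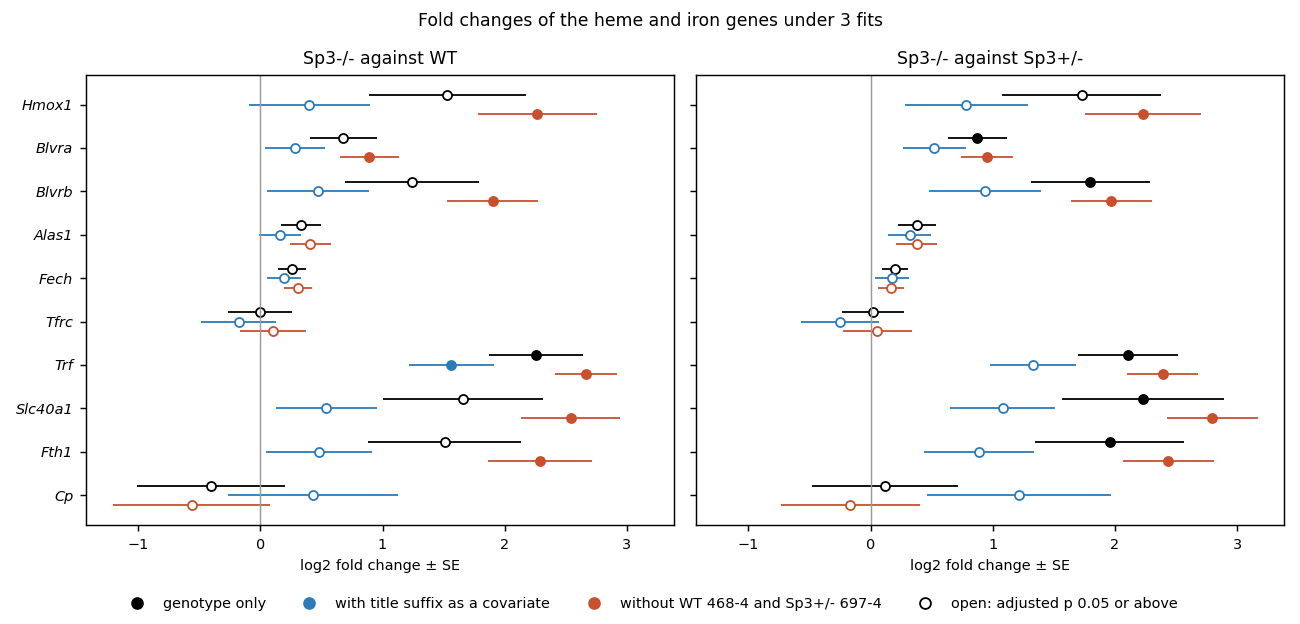
Log2 fold change ± SE of the 10 genes in Sp3-/- against WT (left) and against Sp3+/- (right) under 3 fits, namely genotype only, the title suffix as a covariate, and without WT 468-4 and Sp3+/- 697-4. Filled points have an adjusted p below 0.05 (edgeR). Without those 2 libraries 6 genes are filled in each panel, and with the suffix covariate only Trf against WT is.

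WT 468-4 decided how many of the genes were called against WT. Without it 6 of the 10 were called, all higher, where 29.9% of genes were called and 14.8% were called higher. These were Hmox1 (2.27 ± 0.49), Blvra (0.89 ± 0.24), Blvrb (1.90 ± 0.38), Trf (2.67 ± 0.25), Slc40a1 (2.54 ± 0.40) and Fth1 (2.29 ± 0.43), in log2 fold change ± SE. Against Sp3+/-, the same 6 were called without both 468-4 and 697-4, where 32.0% of genes were called and 15.5% were called higher, in an alternative added after the data were seen. With the suffix as a covariate the WT estimates were 0.40 ± 0.49, 0.28 ± 0.25, 0.47 ± 0.42, 1.56 ± 0.35, 0.54 ± 0.41 and 0.48 ± 0.43, and Trf alone was called, where 9.41% of genes were. Set beside Sp3-/- 685-1, WT 468-4 was higher in Hmox1, Blvra, Blvrb, Slc40a1 and Fth1 and lower in Trf, by the values given above. The macrophage markers summed to 4185 CPM in WT 468-4 and 3899 in Sp3-/- 685-1, while their mean log2 CPM was 5.42 and 5.55. Of the 21 markers, 20 were tested against WT, with 9 called higher, none lower and a median log2 fold change of 2.36. Of all genes, 8.76% were called higher there. Without WT 468-4 all 20 markers were called higher (median 3.38), and with the suffix covariate none was (median 1.13). Against Sp3+/- 18 of the 20 were called higher, where 13.0% of all genes were. With all libraries, Lyz2 rose by 2.73 ± 0.73 against WT (adjusted p = 0.0423, edgeR). The part of macrophage RNA in the differences of Hmox1, Blvra, Blvrb, Trf, Slc40a1 and Fth1 was not tested. Neither macrophage RNA nor the suffix can be told apart from genotype in most of these libraries.

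**Figure D4:**
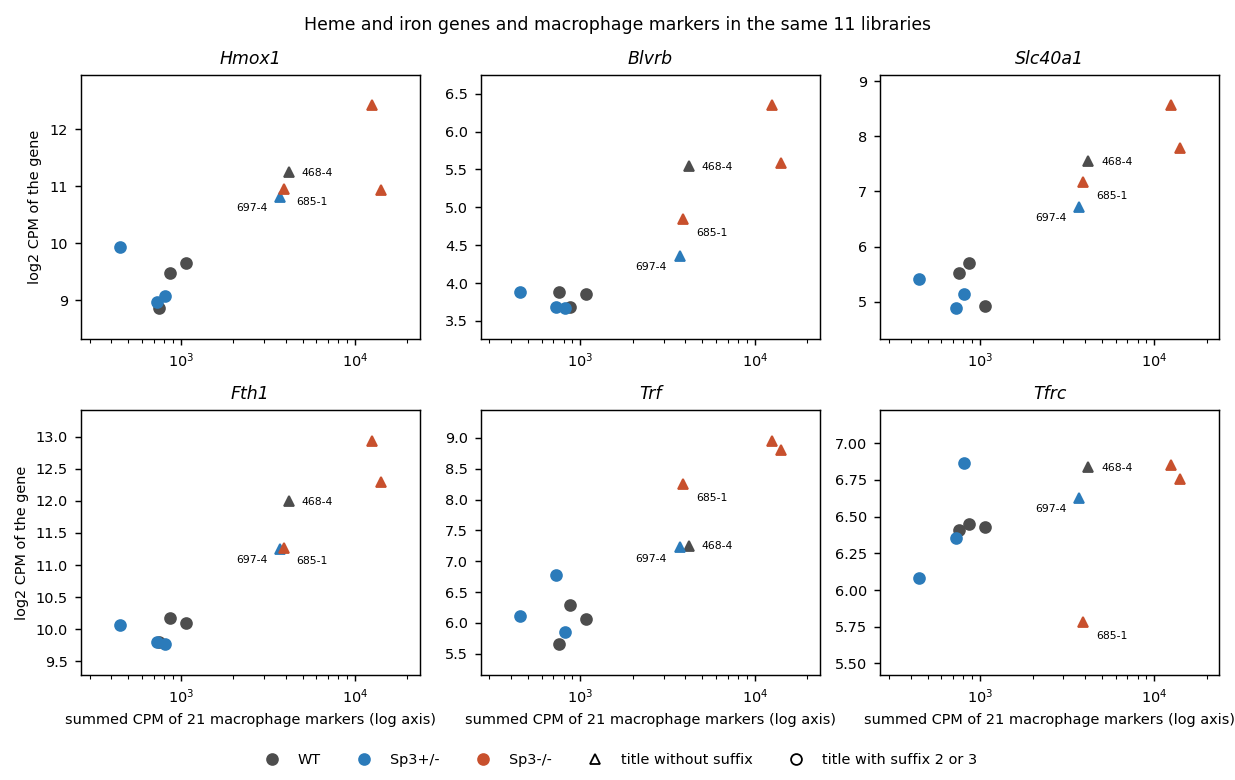
Log2 CPM of 6 of the genes against the summed CPM of 21 macrophage markers (log axis) in the same 11 libraries, with triangles for titles without a suffix. WT 468-4, Sp3+/- 697-4 and Sp3-/- 685-1 have like marker sums (3714 to 4185 CPM), and of the 6 genes plotted (Hmox1, Blvrb, Slc40a1, Fth1, Trf and Tfrc) Trf has 304 CPM in 685-1 against 153 and 150.0 CPM in the other two, while Tfrc is lowest there.

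Markers of other cells were read the same way. The 8 mesothelial markers summed to 759 to 1748 CPM in WT, 1478 to 2611 in Sp3+/- and 2134 to 6092 in Sp3-/-, highest in 685-1, with 4 called higher against WT. Mesenchyme markers had a median log2 fold change of −0.86, with 1 called higher and 4 lower. Epithelial markers summed to 24.7 to 49.2 CPM in WT and 54.7 to 181 in Sp3-/-, without overlap. Against WT, 3 of 8 were called higher (Epcam, Cdh1 and Krt18), with a median log2 fold change of 1.56. In Sp3-/- libraries Epcam reached at most 1.20 CPM and Cdh1 5.91, while Krt18 stood at 36.5 to 104. Estimates were positive for 6 of the 8 and negative for Nkx2-1 (−1.85) and Sftpc (−4.72). Neither Nkx2-1 nor Sftpc was called, and neither exceeded 4.51 CPM in any library. Krt19 is in the mesothelial list too, so the sum does not single out lung epithelium. Endothelial markers summed to at most 129.7 CPM in any library, with 2 of 9 called higher and 1 lower. Erythroid markers summed to at most 15.03 CPM, with neither of the 2 tested called. Their part in the results on heme and iron genes was not tested.

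The wider pathway was read from 8 lists that hold the 10 genes and others of like function. Of 9 heme synthesis enzymes, 2 rose against WT and none fell (median log2 fold change 0.04). These were Alas2, the red cell form of the first enzyme, at 1.99 to 6.46 CPM in WT, 2.39 to 16.05 in Sp3+/- and 8.81 to 13.0 in Sp3-/- (1.66 ± 0.39, adjusted p = 0.0303, edgeR), and Alad, the second enzyme (0.52 ± 0.13, adjusted p = 0.0311, edgeR). Neither was called against Sp3+/-, where no enzyme of the list was, and neither was called against WT with the suffix covariate or when any of WT 685-2, 697-1 or 697-3 or Sp3-/- 685-1 or 697-2 was left out.

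Of 14 tested genes of heme breakdown and heme transport, 2 rose and 2 fell against WT. Slc46a1, a transporter of folate and heme, rose by 0.77 ± 0.17 and Hp, the plasma haptoglobin that binds free hemoglobin, by 3.76 ± 0.89 from a level below 0.3 CPM in every WT library. Hp was low throughout, at 0.14 to 0.68 CPM in Sp3+/- and 0.30 to 6.78 in Sp3-/- libraries, with a median of 1.69 there. The heme and drug exporter Abcg2 fell by 0.88 on the log2 scale (± 0.10), from 67.3 to 81.2 CPM in WT to 38.2 to 42.4 in Sp3-/-, and kept an estimate of −0.90 with the suffix covariate (adjusted p = 0.00652, edgeR). Pgrmc2, a heme chaperone, fell by 0.36. Hmox2, the constitutive heme oxygenase, was steadier than Hmox1, with 30.0 to 36.6 CPM in WT and 37.2 to 51.0 in Sp3-/- (0.40 ± 0.14, adjusted p = 0.0771, edgeR). Against Sp3+/- Hmox2 was called as higher (0.36, adjusted p = 0.0472, edgeR).

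Of 13 tested iron uptake genes, 4 rose and 1 fell. Beside Trf these were Slc39a8, a zinc and iron importer (1.61 ± 0.36), the ferrireductase Steap4 (1.86 ± 0.49), the second transferrin receptor Tfr2 (1.09 ± 0.27) and the fallen Slc39a14, a related importer (−0.67 ± 0.09, adjusted p = 0.0092, edgeR). Steap4 was low, at 0.24 to 0.55 CPM in WT and 0.80 to 2.58 in Sp3-/-. Tfr2 was low too, at 0.73 to 1.09 CPM in WT and 1.78 to 2.00 in Sp3-/-. Slc39a14 also held with the suffix covariate (−0.66, adjusted p = 0.00923, edgeR). Among 6 tested genes of storage and export, 1 rose, the ferritin cargo receptor Ncoa4 (0.71 ± 0.16). The light chain Ftl1, the partner of Fth1, stood at 737 to 1561 CPM in WT, 662 to 1241 in Sp3+/- and 962 to 2102 in Sp3-/- (0.40 ± 0.33, adjusted p = 0.408, edgeR). Heph, the membrane ferroxidase related to Cp, had −1.18 ± 0.36 against WT (adjusted p = 0.058, edgeR) and was called as lower against Sp3+/- (−1.22, adjusted p = 0.0473, edgeR).

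Of 11 tested regulators, Hfe (1.75 ± 0.46) and Bach1 (0.45 ± 0.13) rose against WT and Hif1a fell by 0.83 on the log2 scale. The iron regulatory proteins Aco1 (−0.37 ± 0.11, adjusted p = 0.0556, edgeR) and Ireb2 (0.17 ± 0.13, adjusted p = 0.365, edgeR) and Nfe2l2, the gene of NRF2 (0.41 ± 0.13, adjusted p = 0.0606, edgeR) did not pass the threshold against WT. Against Sp3+/- 6 of the 11 rose and 3 fell, where 25.5% of all genes were called and 13.0% were called higher. Among the 11, Nfe2l2 was called as higher (0.50, adjusted p = 0.0188, edgeR) and Aco1 as lower (−0.30, adjusted p = 0.044, edgeR). With the suffix covariate no regulator was called in either comparison. Among 20 mitochondrial iron and iron-sulfur cluster genes, whose median was 0.13, the mitochondrial iron importer Slc25a28 was one that rose (0.40 ± 0.10) and the transporter Abcb10 fell by 0.65 on the log2 scale. Abcb10 kept an estimate of −0.68 with the suffix covariate (adjusted p = 0.0132, edgeR).

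Of 16 NRF2 target genes outside the 10, 5 rose against WT and none fell, with a median of 0.91. They were G6pdx (0.92 ± 0.17), Gsr (0.62 ± 0.14), Osgin1 (1.25 ± 0.30), Pgd (0.83 ± 0.23) and Prdx1 (1.45 ± 0.41), which supply NADPH or reduce peroxides and glutathione, apart from Osgin1, an oxidative stress induced growth inhibitor. With the suffix covariate 1 stayed called, G6pdx, and the median was 0.30. Without WT 468-4 12 were called, where 29.9% of all genes were called and 14.8% were called higher. Without WT 697-1, WT 697-3 or Sp3-/- 697-2 none was called. Of 8 mRNAs known for an iron responsive element, 1 rose, Alas2, and the median was 0.91. Of the genes named here as called against WT in the 8 lists, Trf, Abcg2, Slc39a14, Abcb10 and G6pdx kept the call with the suffix covariate, and the others had an adjusted p of 0.0631 to 0.263 (edgeR). With single libraries left out, genes called against WT numbered 0 to 2 for heme synthesis, 1 to 8 for heme breakdown and transport, 1 to 7 for uptake, 0 to 4 for storage and export, 0 to 8 for regulators, 0 to 3 for the mitochondrial list, 0 to 12 for NRF2 targets and 0 to 4 for the mRNAs with the element, each highest without WT 468-4 and lowest without Sp3-/- 697-2 among others. These lists were chosen with earlier results of the same libraries known, and their counts stand beside 8.76% of all genes called as higher and 9.77% as lower against WT. Against Sp3+/- 25.5% of all genes were called, 13.0% as higher. Called there as higher and lower were 5 and 2 genes of heme breakdown and transport and 4 and 2 of uptake. For storage and export they were 2 and 1, and for NRF2 targets 9 and 1. With the suffix covariate these 4 lists had 0 and 1, 0 and 1, 0 and 0, and 2 and 0.

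**Figure D5:**
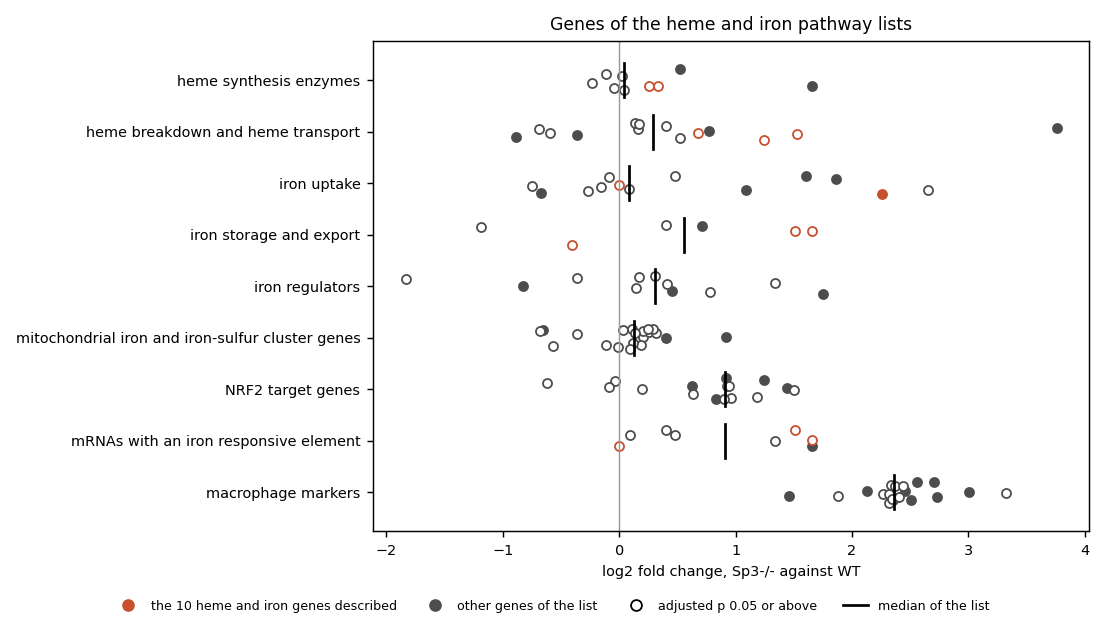
Log2 fold change of each tested gene in Sp3-/- against WT for 8 pathway lists and the macrophage markers. Filled points have an adjusted p below 0.05 (edgeR), orange points are the 10 genes described and black bars are list medians. Heme synthesis enzymes center near 0 (median 0.04), NRF2 targets near 0.91 and macrophage markers at 2.36.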

How the data were processed

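RNA-seq of 11 libraries of fetal lung mesenchymal cells was analysed. The authors sequenced single end reads from TruSeq libraries, and per the labels checked them with FastQC 0.10.1, aligned them to mm10 with STAR 2.4.5a and counted them with HTSeq. The deposited files hold raw counts per gene symbol, with no normalization. The annotation and strand setting are not given in the sources used here. Tallies of reads outside genes (38.4% to 40.9% of each library, mostly not unique) were left out.

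Each gene that exceeded 1 CPM in any library of the fit was tested with edgeR 4.0.16 (TMM, robust quasi-likelihood) in R 4.3.3, and was called at a Benjamini-Hochberg adjusted p below 0.05 over all genes tested. Sp3-/- against WT used 7 libraries, and comparisons with Sp3+/- used all 11. Values per library are TMM-scaled CPM, and log2 CPM has a prior count of 2. Replicate numbers pair no samples. The first number of the title was tried as a block, since its meaning is not stated, and correlations of deviations between libraries of the same number ran from −0.62 to 0.34.

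The members and lists were chosen with earlier results of these data known. Named beside the members are close partners and, of each list, at most 5 called genes with the smallest p. Alternatives were DESeq2 1.42.0, limma-voom (limma 3.58.1) without and with a consensus correlation, other scalings and filters, the suffix covariate, a fit of all 11 libraries or of the 2 genotypes alone, libraries without a suffix only, and each library left out. The limits set by a count of 0 cover counting error only. Matches to RefSeq symbols used older names for Adgre1, Erfe, Flvcr2, Hjv and Meltf. Ahsp, Epb42 and Flvcr1 were not analysed here. The level of 1 gene of the mitochondrial list is not reported here.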

Additional observations from a re-analysis of the deposited data

Results flagged for a closer look

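In WT, library 468-4 stood apart from the other 3 for 4 of the 10 genes, relative to the spread of the group and not by the size of the gap, which for Fech was small (95.6 against 84.4 CPM in the next library). The gap from 468-4 to the next library, as a share of the range of the group in log2 CPM, was 0.8946 for Blvrb, 0.8423 for Fech, 0.9058 for Tfrc and 0.8317 for Fth1, above the limit that Dixon's test sets for 4 samples. In log2 CPM, 468-4 was at 5.55 for Blvrb, 6.58 for Fech, 6.84 for Tfrc and 11.99 for Fth1. The 4 WT and 4 Sp3+/- libraries were looked at for each gene, in 20 groups, and chance flags about 1 in 20 groups. No Sp3+/- library passed that limit, and the 3 Sp3-/- libraries are too few for it.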

How the results depend on the processing

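Each group had 3 or 4 libraries, and the title suffix and macrophage RNA went with genotype in most libraries. The part of either, and the cause of each change below, was not tested. No alternative called any of the 10 genes, or any gene, between Sp3+/- and WT.

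Against WT, 1 of the 10 and 2599 genes were called. DESeq2 called 2 (Trf and Slc40a1) and 4297. The first title number as a replicate block called 6 and 4031, but the numbers are not shown to pair libraries. Leaving out single libraries gave 0 to 6 of the 10 (0 without Sp3-/- 697-2, 6 without WT 468-4) and 282 to 4179 genes (the same libraries). Leaving out both WT 468-4 and Sp3+/- 697-4 gave the same fit as leaving out 468-4 (6 and 4179), since no Sp3+/- library was in it. The suffix covariate called 1 and 1329, the suffix with the file name of 697-4 0 and 163, libraries without a suffix 0 and 0 (WT had 1 library there), and all 11 libraries in a fit 1 and 3977. The 2 alternatives that treat 697-4 by its file name or leave it out were added after the data were seen.

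Against Sp3+/-, 5 of the 10 and 3607 genes were called. With every gene that had a count, 3 of the 10 were called, with the suffix covariate 0 and 763 genes, and with the file name of 697-4 0 and 0. Leaving out single libraries gave 1 to 6 of the 10 and 1490 to 4245 genes (lowest without Sp3-/- 697-2, highest without WT 468-4). The replicate block called 6, adding Hmox1, and 2956 genes.

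Direction turned only for estimates that were not called. Against WT, Tfrc was 0.0053 by DESeq2, 0.033 with the replicate block and 0.10 without 468-4 and 697-4, and −0.21 to 0.26 with single libraries left out. Cp was 0.084 and 0.066 by limma-voom without and with the consensus correlation, 0.43 with the suffix, 0.21 with the suffix of the file name, 0.20 in libraries without a suffix, and −0.73 to 0.046 with single libraries left out. For Sp3+/- against WT, Hmox1 was 0.0062 and 0.0015 by limma-voom without and with the correlation, 0.087 with the block and 0.040 without both libraries, where Alas1 was 0.032 and Tfrc 0.049. Tfrc was 0.022 with the block, 0.070 with the suffix and 0.18 with the file name. With single libraries left out, this comparison gave −0.72 to 0.54 for Hmox1, −0.31 to 0.020 for Blvra, −0.75 to 0.11 for Blvrb, −0.14 to 0.032 for Alas1, −0.17 to 0.086 for Tfrc, −0.15 to 0.56 for Trf, −1.16 to 0.31 for Slc40a1 and −0.95 to 0.33 for Fth1, with the highest always without WT 468-4. Against Sp3+/-, Tfrc was −0.056 and −0.053 by limma-voom without and with the correlation, −0.051 with the upper quartile, −0.090 with the block, −0.25 with the suffix and −0.49 with the file name, and −0.19 to 0.29 with single libraries left out, and Cp was −0.16 without both libraries and −0.15 to 0.36 with single ones left out. Of all estimates of the 10 genes under the alternatives, 559 kept their direction and side of the threshold, 21 newly passed it, 35 no longer did and 45 turned direction. In these tallies the fit of Sp3-/- against WT without 468-4 is counted again as the fit without both libraries. Of the medians and counts of the pathway lists, 197 stayed close to the reported value and 75 moved.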
